A study of Mus musculus with 14 samples.

Results

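Potassium channel genes were taken as every row of the count table whose symbol starts with Kcn, 94 of 32926 gene symbols, and all 94 had an entry in the GENCODE M21 annotation of mm10, from which their coordinates are given. By symbol prefix they comprised 40 pore-forming voltage-gated genes (Kcna to Kcnd, Kcnf, Kcng, Kcnh, Kcnq, Kcns and Kcnv), 15 inward rectifiers (Kcnj), 14 two-pore channels (Kcnk), 8 calcium-activated and related channels (Kcnma, Kcnn, Kcnt and Kcnu), 16 accessory subunits (Kcnab, Kcne, Kcnip and Kcnmb) and Kcnrg, a regulator without a pore. They were measured by poly(A) RNA sequencing in 14 libraries of mouse small cell lung cancer cell lines grown in HITES medium, in 6 groups. The lines came from lung tumours of adult mice of mixed strain that were given tamoxifen (TM in the labels) after 2 months. All groups carried the alleles CGRPCreER/+, Rbf/f, P53f/f and Ptenf/f, so Cre acted from the promoter of the calcitonin gene-related peptide gene, and the tumour suppressor loci were open to deletion in the controls too. The groups were neuroendocrine cells (NE, n = 3), non-neuroendocrine cells (Non-NE, n = 3) and NE cells with Rosa26rtTA and Tet-onYAP5SA, which express the mutant coactivator YAP5SA when induced, at days 0, 3, 7 and 21 (n = 2 each). The text of day 0 replicate 1 lists neither transgene, and the genotype field of 6 NE, Non-NE and day 0 libraries has a running number in place of P53. The labels do not say whether libraries of a group came from separate tumours, lines or cultures, so p-values measure only the spread between these libraries, which may be technical.

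Potassium channels let potassium leave or, for inward rectifiers, enter the cell along its gradient, which sets the resting membrane potential and ends action potentials. A pore is built from 4 voltage-gated, inward rectifier or calcium-activated subunits or from a pair of two-pore subunits, and accessory subunits change its gating and its traffic to the membrane. Pulmonary neuroendocrine cells are excitable cells that sense airway signals and release amines and peptides, and small cell lung cancer cells of the neuroendocrine type keep part of this programme.

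Library totals ran from 6730816 to 10659524 counts. Values are CPM, counts scaled by TMM to a common library size over all 14 libraries, and CPM per kb divides by the length of a gene's merged exons. Yap1, the gene whose mutant form was induced, stood at 19.2, 8.20 and 11.6 CPM in the NE libraries, 134, 257 and 226 CPM in the Non-NE libraries, and 7.87 and 7.13 CPM at day 0, 1233 and 1063 at day 3, 734 and 793 at day 7 and 207 and 219 at day 21. NE replicate 2 had no more counts than YAP5SA day 0 replicate 1 in any of 32926 genes, against 2995 genes above in day 0 replicate 2, and differed from a random 85.7% of that library by no more than sampling noise. These libraries therefore share reads, so NE and day 0 are not independent, and the test of the difference between their changes left NE replicate 2 out. Of 8 neuroendocrine markers, 7 reached 1 CPM in NE and at every day and 2 in Non-NE, with summed levels of 2487 to 3996 CPM across NE libraries, 58.8 to 418 CPM across Non-NE libraries, 3790 to 3992 CPM at day 0 and 663 to 678 CPM at day 21. Ncam1 alone held 57.7, 345 and 411 CPM of the Non-NE sum, and it was higher in Non-NE than in NE (adjusted p = 0.0319) and at day 21 than at day 0 (adjusted p = 1.13e-13). Calca, which encodes the peptide whose promoter drove Cre, had no counts except at day 21. The 7 fibroblast markers summed to 10460 to 22660 CPM in Non-NE, where 7 reached 1 CPM on average, 2.99 to 6.28 CPM in NE and 22.3 to 23.8 CPM at day 21. The 5 neuron markers summed to 30.0 to 103 CPM across NE libraries and 0.122 to 0.637 CPM across Non-NE libraries. The 6 leukocyte markers summed to 62.2 to 64.9 CPM at day 7 and 105.6 to 127 CPM at day 21, of which Csf1r made up 60.5 and 114.5 CPM on average while Ptprc had no counts. The 4 smooth muscle and pericyte markers summed to 2.24 to 5.14 CPM across NE libraries and 15.7 to 3175 CPM across Non-NE libraries. Acta2 alone held 15.0, 3174 and 662 CPM of the Non-NE sum, where Myh11 and Rgs5 averaged 0.480 and 0.315 CPM. Des had the opposite order, with a Non-NE mean of 0.409 CPM and an NE mean of 2.77 CPM. At day 21 these markers summed to 25.6 to 27.2 CPM, and all 4 reached 1 CPM on average. The 4 endothelial markers summed to at most 2.34 CPM in any library. The part of these markers' cells in the results was not tested, and in bulk RNA fewer cells of a type and less RNA per cell cannot be told apart.

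NE cells held a broad set of potassium channel transcripts, and Non-NE cells held few. The Kcn genes took 0.202% to 0.236% of all counts in NE libraries, 0.00437% to 0.00792% in Non-NE libraries, 0.236% to 0.245% at day 0 and 0.134% to 0.142% at day 21. At least 10 CPM was reached by 25 to 26 members in NE libraries, 0 to 2 in Non-NE libraries, 26 at day 0, 20 at day 7 and 24 to 25 at day 21. In all, 5 of 94 members had no counts in any library (Kcnk15, Kcne1l, Kcna10, Kcnj16 and Kcng3). Summed per kb, the 94 genes reached 394.7 ± 47.1 CPM per kb in NE (SD, n = 3), 14.5 ± 4.12 in Non-NE (n = 3), 458 ± 17.1 at day 0, 389 ± 3.37 at day 3, 385 ± 8.84 at day 7 and 343 ± 6.47 at day 21 (n = 2 each). NE and Non-NE libraries did not overlap in this sum, and the day 21 libraries lay below those of all earlier days.

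The classes did not move together over the days. Two-pore channels summed to 101 ± 6.42 CPM per kb in NE, 1.54 ± 0.346 in Non-NE, 110.0 ± 6.53 at day 0, 130.3 ± 3.70 at day 3, 183.5 ± 7.30 at day 7 and 183 ± 5.15 at day 21. Voltage-gated genes summed to 170.0 ± 6.38 CPM per kb in NE, 2.98 ± 1.78 in Non-NE, 178 ± 3.69 at day 0 and 105 ± 11.6 at day 21. Accessory subunits summed to 143 ± 4.78 CPM per kb at day 0, 36.1 ± 1.36 at day 7 and 45.4 ± 0.106 at day 21. They held 102.5 ± 32.3 in NE and 4.09 ± 0.689 in Non-NE. The two-pore sum was thus the one whose day 21 libraries lay above its day 0 libraries, and the accessory sum lost most of its level by day 7. Calcium-activated and related genes summed to 8.50 ± 2.01 CPM per kb in NE and 5.29 ± 2.34 in Non-NE, with overlapping libraries, and inward rectifiers were low throughout, at 12.2 ± 5.60 CPM per kb in NE and 0.466 ± 0.125 in Non-NE.

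**Figure D1:**
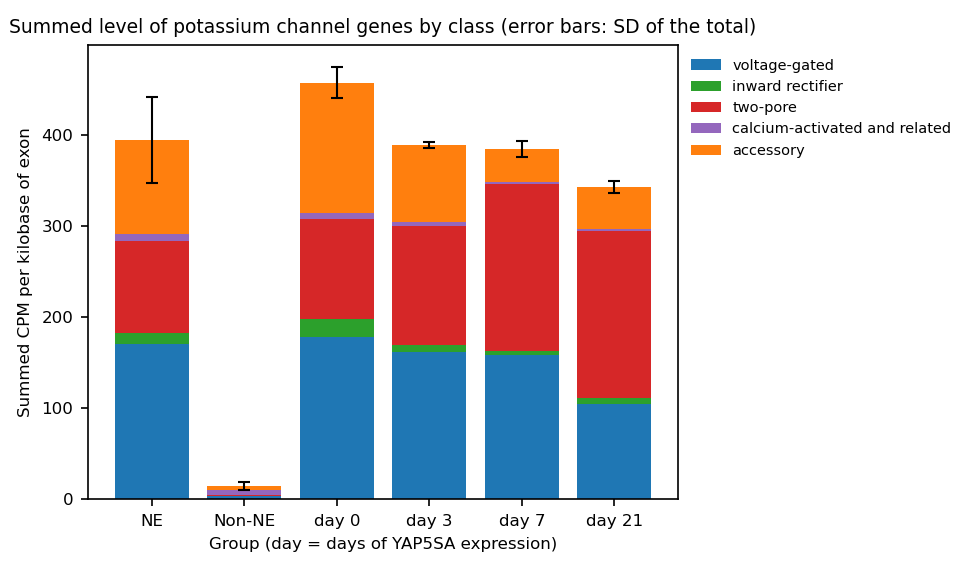
Stacked bars of the mean summed CPM per kb of the Kcn classes in each of the 6 groups, with error bars for the SD of the total (n = 3 for NE and Non-NE, n = 2 for each day). The Non-NE bar stands at 14.5 CPM per kb against 394.7 in NE, and the two-pore share grows from day 0 to day 21 while the accessory share shrinks.

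Per kb, Kcnk1, which encodes the two-pore channel TWIK1, was the most abundant member in NE and at every day. It made up 13.9% of the summed Kcn level in NE, 16% at day 0, 22.5% at day 3, 36.4% at day 7 and 43.6% at day 21. In NE it was followed by Kcnip2 (45.4 ± 19.2 CPM per kb), Kcnh2 (33.3 ± 3.86), Kcnh6 (28.0 ± 7.86), Kcnk2 (21.6 ± 6.11) and Kcnip1 (21.1 ± 6.21). Kcnk1 itself stood at 54.8 ± 20.5 CPM per kb in NE, and the SDs of neighbours overlap, so the order of these genes in NE is not resolved. At day 21 Kcnk1 (149.7 ± 7.28 CPM per kb) was followed by Kcnf1 (26.5 ± 3.49), Kcnk2 (22.6 ± 0.804) and Kcnh2 (18.2 ± 2.95), and the distance from Kcnk1 to Kcnf1 exceeded the spread of both. In Non-NE, where Kcnk1 had no counts, Kcnn4 led with 3.96 ± 2.86 CPM per kb, 27.3% of the sum, followed by Kcnab2 with 1.36 ± 0.846, whose spread overlaps that of Kcnn4.

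**Figure D2:**
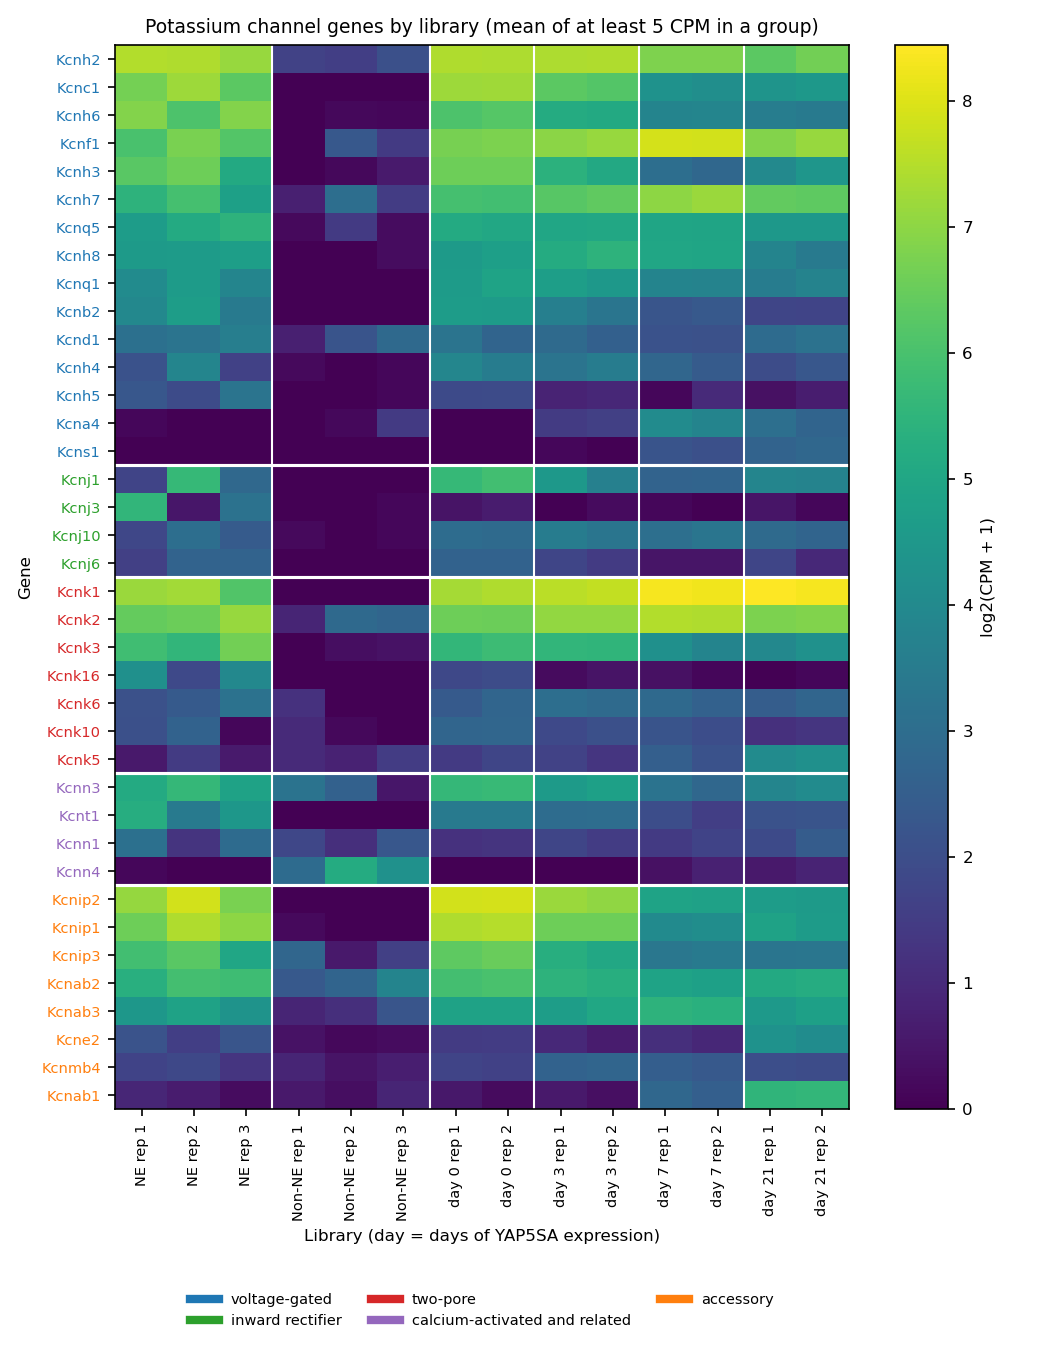
Colour map of log2(CPM + 1) for 38 members with a mean of at least 5 CPM in any group (rows, by class) in the 14 libraries (columns, by group). Most rows are dark in the 3 Non-NE columns, where Kcnn4 is the row that stands out, and Kcnip1 to Kcnip3 fade from day 0 to day 7.

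Non-NE libraries were compared with NE libraries to ask which channels differ between the cell states. Of 94 members, 42 had enough counts for the test, 37 were lower in Non-NE, 1 was higher (Kcnn4) and 4 were not called (Kcnd1, Kcnk6, Kcnn1 and Kcnmb1), in edgeR's quasi-likelihood test with Benjamini-Hochberg adjustment over all genes and a threshold of 0.05. Of all 12966 genes tested, 42.8% were called, 22.8% lower and 20.0% higher. The median log2 change of the 42 members was -6.94, against -0.02 over all genes tested. A member near 0 in Non-NE passed the count filter only through its NE level and so had to differ, which holds for the 13 of 37 lower members without a count in Non-NE, so this count and median describe the tested members and not the whole family. The other 52 members had a group mean of at most 18.1 CPM (Kcnj3), with a median of 0.194 CPM for the higher of both groups, and 41 of 94 members had no counts in Non-NE, against 16 in NE. No counts over a group allow up to 0.127 CPM in Non-NE and 0.104 CPM in NE, from 3 counts over the group. Folds against such a group are lower bounds at that floor, and bounds and counting intervals cover counting error only.

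Among the voltage-gated genes 18 of 19 tested were lower in Non-NE, against 22.8% of all genes. The limit set by the count filter holds for this and the other class counts. Kcnq5, which encodes a subunit of the M-current that damps repetitive firing, went from 24.4, 34.3 and 42.6 to 0.165, 1.71 and 0.212 CPM, 48.1-fold lower (adjusted p = 0.00211). Kcnq1, the subunit of the slow cardiac and epithelial current, had 15.6, 23.5 and 13.3 CPM in NE and no counts in Non-NE, at least 137-fold lower (adjusted p = 0.000831).

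The ERG, ELK and EAG genes share a cytoplasmic domain and open near rest. Kcnh2 (chr5:24319589-24351604, minus strand), the ERG channel that repolarises the heart, was even across NE at 174, 170.1 and 139.9 CPM and stood at 2.15, 1.95 and 3.18 CPM in Non-NE, 67.4-fold lower (log2 change -6.07, SE 0.29, adjusted p = 2.91e-05). Kcnh6, also of the ERG type, went from 116, 67.2 and 115 to 0, 0.122 and 0.106 CPM (adjusted p = 4.47e-05). The third ERG gene, Kcnh7, went from 43.1, 61.4 and 26.9 to 0.661, 7.20 and 1.80 CPM, 13.8-fold lower (log2 change -3.78, SE 0.82, adjusted p = 0.0103). Kcnh7 kept a measurable level in Non-NE replicate 2, while Kcnh6 was close to 0 in all Non-NE libraries. Of the ELK genes, Kcnh3 went from 76, 94.5 and 33.5 to 0, 0.122 and 0.531 CPM, Kcnh8 from 23.2, 23.8 and 25.7 to 0, 0 and 0.212 CPM and Kcnh4 from 3.38, 13.4 and 2.13 to 0.165, 0 and 0.106 CPM, with adjusted p of 0.000482, 0.000352 and 0.00578. The EAG gene Kcnh5 went from 3.86, 2.84 and 8.41 to 0, 0 and 0.106 CPM (adjusted p = 0.00199). Kcnh8 was the evenest of these in NE, and Kcnh4 was carried mainly by NE replicate 2.

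The delayed rectifier gene Kcnb2, the silent subunit gene Kcnf1 and the fast-spiking gene Kcnc1 were also lower in Non-NE. Kcnb2 had 14.4, 24.9 and 9.80 CPM in NE and no counts in Non-NE, at least 128-fold lower (adjusted p = 0.00145). Kcnf1, a silent subunit that forms channels only together with other voltage-gated subunits, went from 64.3, 105 and 71.2 to 0, 4.03 and 1.70 CPM, 41.6-fold lower (log2 change -5.38, SE 0.93, adjusted p = 0.00417). No NE library overlapped a Non-NE library for Kcnb2 or Kcnf1. Kcnc1 encodes a high-threshold channel for fast firing. Kcnc1 (chr7:46396497-46438704, plus strand) had 101, 145 and 79.3 CPM in NE and no counts in Non-NE, at least 852-fold lower (adjusted p = 0.000201). The A-type gene Kcnd1, with 7.72, 8.53 and 11.3 CPM in NE libraries and 0.661, 3.54 and 6.37 CPM in Non-NE libraries, did not pass the test (adjusted p = 0.163), while Kcnd2 and Kcna7, below 5 CPM on average in NE, had no counts in Non-NE and were called lower. Kcna4, also of the A-type, was at 0.0965, 0 and 0 CPM in NE libraries and 0, 0.122 and 1.70 CPM in Non-NE libraries and was not tested, and the silent subunit Kcns1 had no counts in either group.

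Two-pore channels carry the background leak current, and 4 of 5 tested were lower in Non-NE, against 22.8% of all genes. Kcnk1 (chr8:125995170-126030685, plus strand) had 144, 154 and 69.9 CPM in NE and no counts in any Non-NE library, at least 969-fold lower (adjusted p = 0.000367). The mechanically gated TREK1 channel gene Kcnk2 went from 85.5, 93.3 and 141 to 0.826, 6.35 and 5.73 CPM, 24.9-fold lower (log2 change -4.64, SE 0.67, adjusted p = 0.00203). The acid-sensing TASK1 gene Kcnk3 went from 57.4, 46.4 and 100.0 to 0, 0.244 and 0.318 CPM, 315-fold lower (log2 change -8.30, SE 0.66, adjusted p = 0.000164). No NE library overlapped a Non-NE library for Kcnk1, Kcnk2 or Kcnk3. Kcnk16, the TALK1 channel of pancreatic islet cells, had 18.1, 2.62 and 14.3 CPM in NE, lowest in NE replicate 2, and no counts in Non-NE, at least 94.2-fold lower (adjusted p = 0.00642). Kcnk6, with 3.28, 4.26 and 8.09 CPM in NE libraries and 1.32, 0 and 0 CPM in Non-NE libraries, missed the threshold (adjusted p = 0.0541). Kcnk5, which encodes the alkaline-activated TASK2, and Kcnk10, which encodes TREK2, were not tested. Kcnk5 stood at 0.483, 1.75 and 0.532 CPM in NE libraries and 0.992, 0.733 and 1.80 CPM in Non-NE libraries, and Kcnk10 at 3.19, 5.36 and 0.106 and 0.992, 0.122 and 0 CPM.

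All 4 inward rectifiers tested were lower in Non-NE, against 22.8% of all genes. Kcnj1, the ROMK channel of the kidney tubule, had 2.32, 48.9 and 6.18 CPM in NE, mostly in NE replicate 2, and no counts in Non-NE (adjusted p = 0.0215). The glial Kcnj10 went from 2.51, 7.33 and 4.37 to 0.165, 0 and 0.106 CPM (adjusted p = 0.00233), and Kcnj6, a G-protein-gated subunit, from 2.03, 5.47 and 5.43 CPM to no counts (adjusted p = 0.00389). Kcnj11, the pore of the ATP-sensitive channel, averaged 2.27 CPM in NE and had no counts in Non-NE. Kcnj3, the other G-protein-gated subunit, stood at 45.8, 0.437 and 7.99 CPM in NE libraries and 0, 0 and 0.106 CPM in Non-NE libraries and was too uneven to pass the count filter. Kcnj3 and Kcnj1 therefore marked different NE libraries, the former replicate 1 and the latter replicate 2.

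Kcnn4 was the member that was higher in Non-NE. It lies at chr7:24370263-24386690, plus strand and encodes the intermediate-conductance calcium-activated channel of blood, epithelial and proliferating fibroblast cells. The Non-NE libraries held 6.78, 35.8 and 18.1 CPM and the NE libraries 0.0965, 0 and 0 CPM, a ratio of 617 with a 95% counting interval of 110.2 to 24400 that rests on a single count in NE (adjusted p = 0.00112). All Non-NE libraries lay above all NE libraries, with a spread among them. The 7 fibroblast markers summed to 10460 to 22660 CPM in the same libraries, mostly from Col1a1, Col1a2 and Col3a1. In Non-NE replicate 2, which had the most Kcnn4, Pdgfrb stood at 347 CPM but Pdgfra at 1.71, Dcn at 0.977 and Lum at 0 CPM. The part of these markers' cells in this difference was not tested. The small-conductance relatives did not do the same. Kcnn3 went from 34.4, 48.6 and 28 to 8.26, 5.13 and 0.425 CPM, 8.46-fold lower (log2 change -3.08, SE 0.86, adjusted p = 0.0261), a call that was lost without any 1 of the NE libraries or without Non-NE replicate 2 (adjusted p = 0.0508 to 0.0794). Kcnn1, at 7.72, 1.42 and 6.82 CPM in NE libraries and 2.48, 1.22 and 3.93 CPM in Non-NE libraries, was not called (adjusted p = 0.27). Kcnt1, which encodes the sodium-activated Slack channel, had 37.3, 10.1 and 20.9 CPM in NE and no counts in Non-NE, at least 184-fold lower (adjusted p = 0.00197), and Kcnu1 and Kcnn2, at means of 3.68 and 2.92 CPM in NE, were called lower as well.

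Of the accessory subunits 7 of 8 tested were lower in Non-NE, against 22.8% of all genes. The KChIP genes encode calcium-binding partners of Kcnd channels. Kcnip2 (chr19:45791839-45816061, minus strand) had 135, 233 and 105 CPM in NE and no counts in Non-NE, at least 1233-fold lower (adjusted p = 0.000353). Kcnip1 had 94.3, 171 and 128 CPM in NE libraries and 0.165, 0 and 0 CPM in Non-NE libraries, from 1 count, a ratio of 3063 with a 95% counting interval of 549 to 121000 (adjusted p = 5.24e-05). Kcnip3, whose product is also known as the repressor DREAM, went from 57.5, 77.4 and 30.6 to 5.95, 0.488 and 2.02 CPM, 20.8-fold lower (log2 change -4.38, SE 0.84, adjusted p = 0.00612). In CPM these 3 stood above the Kcnd genes in NE, of which Kcnd1 averaged 9.18 and Kcnd2 4.43 CPM, while Kcnip4 averaged 1.54 CPM in NE and was not tested. Kcnab2 and Kcnab3 encode cytosolic beta subunits. Kcnab2 went from 39.4, 59.1 and 55.5 to 4.13, 5.62 and 12.9 CPM, 6.90-fold lower (log2 change -2.79, SE 0.48, adjusted p = 0.00388), and Kcnab3 from 21.1, 28.1 and 19.2 to 0.826, 1.22 and 3.71 CPM, 11.8-fold lower (adjusted p = 0.00388). Kcnab1, at 0.869, 0.547 and 0.213 CPM in NE libraries and 0.496, 0.244 and 0.849 CPM in Non-NE libraries, was not tested. Kcne2, a single-span partner of Kcnh2 and Kcnq1, went from 3.48, 1.97 and 3.73 to 0.331, 0.122 and 0.212 CPM, 13.8-fold lower (log2 change -3.79, SE 0.58, adjusted p = 0.00238). Kcnmb4, a beta subunit of the large-conductance calcium-activated channel, went from 2.22, 2.52 and 1.49 to 0.826, 0.366 and 0.637 CPM (adjusted p = 0.0257). That call was lost with DESeq2 (adjusted p = 0.0617), with the replicate block (0.0749), without a count filter (0.0912), and without NE replicate 1, NE replicate 2, Non-NE replicate 2 or Non-NE replicate 3, and 31.5% of its exon bases overlap antisense genes, which cannot be told apart here because strand was not stated for the counting.

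**Figure D3:**
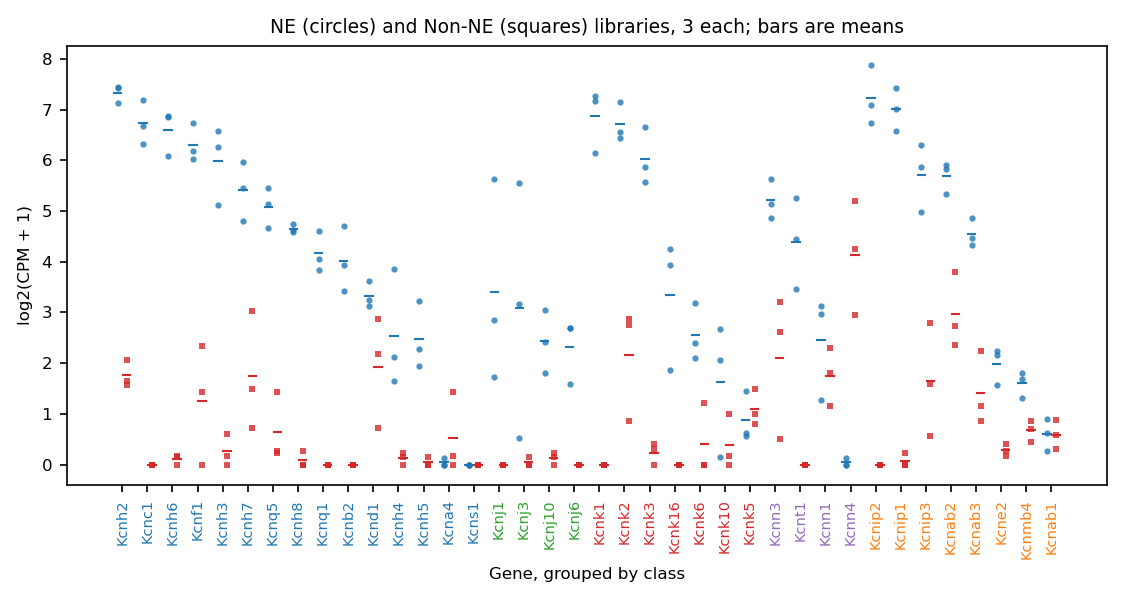
Levels as log2(CPM + 1) in the 3 NE and 3 Non-NE libraries (points) of the members shown, with bars at the group mean of these log values. NE points lie above Non-NE points for the members called lower, and Kcnn4 shows the opposite order.

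The YAP5SA series asked how the same genes move once YAP5SA is switched on in NE cells. It holds no uninduced library at days 3, 7 or 21, so YAP5SA and time in culture cannot be told apart. Kcnip1 to Kcnip3 of the KChIP genes, Kcnc1, Kcnh3 and Kcnh6 fell, and Kcnk1, Kcnk2, Kcnk5 and Kcnab1 rose. Of 52 members tested, 11 were higher and 20 lower at day 3, 15 higher and 28 lower at day 7, and 14 higher and 26 lower at day 21, each against day 0 in edgeR with a threshold of 0.05. Of all 13996 genes tested, 48.6% were called at day 3 (26.2% higher, 22.4% lower), 71.0% at day 7 (37.2% and 33.8%) and 71.7% at day 21 (37.7% and 34.0%). The share of the 52 called lower (38.5% at day 3 and 53.9% at day 7) lay above that of all genes, and the share called higher (21.2% and 28.9%) lay below it. The median log2 change of the 52 members was -0.24 at day 3, -0.79 at day 7 and -0.61 at day 21, against 0.01, 0.03 and 0.02 over all genes tested. The other 42 members averaged at most 1.02 CPM at any day (Kcnj12). A member near 0 at day 0 passed the count filter only through later days, and one near 0 later only through earlier days. Such a member had to differ, so these shares and medians describe the tested members and not the whole family. The spread between the 2 libraries of a day was small, with a biological coefficient of variation of 0.0548 against 0.399 among the NE and Non-NE libraries. In a fit of all 14 libraries, which uses 1 spread for both sets, the calls dropped to 3 higher and 1 lower at day 3, 7 and 17 at day 7, and 9 and 16 at day 21. Of the calls above it lost 27 of 31 at day 3, 20 of 43 at day 7 and 16 of 40 at day 21. At day 3 Kcna4 and Kcnh6 were among those that held. The calls lost at day 7 included Kcnf1, Kcnh7, Kcnk2, Kcnk5, Kcnj1, Kcnd1, Kcnd3, Kcnma1, Kcnh4, Kcnh5, Kcnh8, Kcnk10, Kcnab3 and Kcnmb4 (adjusted p = 0.052 to 0.613). Those lost at day 21 included Kcnf1, Kcnh7, Kcnk2, Kcnq5, Kcnh4, Kcnj1, Kcnj6, Kcnk10, Kcnn1, Kcnn3, Kcnt1, Kcnd3 and Kcnab2 (adjusted p = 0.0595 to 0.754).

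Over the series 18 of 52 members were lower at each of days 3, 7 and 21, and 7 were higher at each, among them Kcnk2, Kcnh7, Kcna4, Kcnd3, Kcnk1 and Kcnf1. For Kcnd3 these calls were lost without day 0 replicate 2 (adjusted p = 0.299, 0.0826 and 0.345), and for Kcnf1 that of day 3 without day 0 replicate 1 (0.0605) or day 3 replicate 2 (0.0755). From day 3 to day 7 the calls were 13 higher and 22 lower, where 55.6% of all genes were called, 29.5% higher and 26.1% lower. From day 7 to day 21 they were 14 higher and 15 lower, where 50.3% of all genes were called, 26.1% higher and 24.2% lower. Of the 15 members that were higher at day 7, 9 fell from there to day 21, and of the 28 that were lower at day 7, 8 rose. The shares of all genes with such joint patterns over several days were not counted, so these counts describe the members only. Kcnip4, Kcnk6 and Kcnmb1 were not called against day 0 at any day.

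The delayed rectifier gene Kcnb2 fell while silent subunit genes rose. Kcnb2 stood at 24.5 and 23.8 CPM at day 0, 11.6 and 8.64 at day 3, 3.66 and 4.07 at day 7 and 2.38 and 2.33 at day 21. It was 10.1-fold lower at day 21 (log2 change -3.33, SE 0.19, adjusted p = 4.22e-14). The libraries of day 0 and day 21 did not overlap for Kcnb2, whose mean was lowest at day 21. Its step from day 7 to day 21 was called lower (log2 change -0.70), a call that did not hold in all alternatives. Kcnf1 stood at 104 and 109 CPM at day 0, 125 and 139.7 at day 3, 235 and 234 at day 7 and 115 and 139 at day 21. The gene was 2.22-fold higher at day 7 (log2 change 1.15, SE 0.08, adjusted p = 4.32e-12). Its excess at day 21 was small (log2 change 0.28, SE 0.08, adjusted p = 0.00523), and that call was lost with scaling by library totals (adjusted p = 0.148), without day 0 replicate 1 (0.067), without day 21 replicate 2 (0.148) and with all 14 libraries in 1 fit (0.754). Kcns1 (chr2:164163619-164171113, minus strand) stood at 0 and 0 CPM at day 0, 0.0972 and 0 at day 3, 3.56 and 3.15 at day 7 and 5.43 and 6.10 at day 21. It was at least 24-fold above day 0 at day 7 and at least 41.2-fold at day 21 (adjusted p = 5.99e-11). Without counts at day 0, Kcns1 passed the count filter only through later days, so this p-value adds no support. It had no counts in NE or Non-NE either, so day 3 replicate 1 and the later libraries were the ones with reads for it.

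Fast-spiking and A-type genes were mixed. Kcnc1 stood at 145 and 151 CPM at day 0, 77.6 and 72.3 at day 3, 18.7 and 16.9 at day 7 and 19.7 and 21.5 at day 21. Its level was 8.24-fold lower at day 7 (log2 change -3.04, SE 0.10, adjusted p = 1.88e-19). Kcna4 (chr2:107290639-107298502, plus strand) stood at 0 and 0 CPM at day 0, 1.75 and 2.02 at day 3, 16 and 13.1 at day 7 and 7.53 and 5.52 at day 21. It was at least 104-fold above day 0 at day 7 (adjusted p = 4.93e-14) and fell 2.21-fold from day 7 to day 21 (log2 change -1.14, SE 0.18, adjusted p = 1.59e-05). Without counts at day 0, Kcna4 passed the count filter only through later days, so its p-value against day 0 adds no support. Kcnd1 stood at 8.44 and 5.55 CPM at day 0, 6.61 and 5.05 at day 3, 3.35 and 3.25 at day 7 and 6.67 and 8.04 at day 21. It was lower at day 7 (adjusted p = 0.000415) and not called at day 21 (adjusted p = 0.693). Kcnd1 had its lowest and Kcna4 its highest level at day 7, while Kcnc1 was low at days 7 and 21 with no call between them.

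The ERG, ELK and EAG genes divided as well. The ERG gene Kcnh7 stood at 61.5 and 58.1 CPM at day 0, 75.6 and 82.2 at day 3, 128 and 142 at day 7 and 84.4 and 81.1 at day 21. The gene was 2.27-fold higher at day 7 (log2 change 1.19, SE 0.08, adjusted p = 1.83e-12) and 1.41-fold at day 21 (log2 change 0.49, SE 0.08, adjusted p = 1.25e-05). Its paralogue Kcnh2 stood at 171 and 169 CPM at day 0, 167 and 172 at day 3, 111 and 111 at day 7 and 78.2 and 98.4 at day 21. This gene was not called at day 3 (adjusted p = 0.893) and 1.90-fold lower at day 21 (log2 change -0.92, SE 0.08, adjusted p = 4.06e-10). Kcnh6 stood at 66.7 and 73.6 CPM at day 0, 35.9 and 34.1 at day 3, 13 and 13.3 at day 7 and 11.1 and 9.78 at day 21. Its level was 6.62-fold lower at day 21 (log2 change -2.73, SE 0.11, adjusted p = 5.23e-17). Most of the fall of Kcnh6 was in place by day 7, while Kcnh2 was first lower at day 7. Of the ELK genes, Kcnh3 stood at 94.6 and 94.5 CPM at day 0, 42.1 and 33.2 at day 3, 7.32 and 6.10 at day 7 and 14.8 and 20.7 at day 21. It was 13.9-fold lower at day 7 and 2.66-fold up again from day 7 to day 21 (log2 change 1.41, SE 0.18, adjusted p = 5.08e-07). Kcnh4 stood at 13.5 and 10.6 CPM at day 0, 8.55 and 10.6 at day 3, 5.89 and 4.37 at day 7 and 2.86 and 3.88 at day 21. The gene was 3.53-fold lower at day 21 (adjusted p = 4.12e-08). Kcnh8 stood at 23.4 and 26.4 CPM at day 0, 35.5 and 42.6 at day 3, 31.1 and 30.1 at day 7 and 13.2 and 10.1 at day 21. Against day 0 it was higher at day 3 (adjusted p = 6.72e-05) and 2.11-fold lower at day 21 (log2 change -1.08, SE 0.14, adjusted p = 2.22e-07). Its day 7 call was lost with DESeq2 (adjusted p = 0.0828) and with library totals (0.429), and without day 0 replicate 1 or either day 7 library. The EAG gene Kcnh5 stood at 2.72 and 2.78 CPM at day 0, 0.777 and 0.919 at day 3, 0.102 and 1.02 at day 7 and 0.286 and 0.581 at day 21. It was lower at each day (day 21 adjusted p = 5.12e-05).

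The genes Kcnq5 and Kcnq1 were lower at day 21. Kcnq5 stood at 34.5 and 32.6 CPM at day 0, 30.5 and 32 at day 3, 29.9 and 29.2 at day 7 and 21.4 and 21.4 at day 21. The gene was called against day 0 only at day 21 (log2 change -0.62, SE 0.10, adjusted p = 8.95e-06). Kcnq1 stood at 23.7 and 28.8 CPM at day 0, 25.3 and 21.7 at day 3, 13 and 12.7 at day 7 and 10.6 and 12.6 at day 21. It was not called at day 3 (adjusted p = 0.265) and 2.23-fold lower at day 21 (adjusted p = 5.24e-08).

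The rise of the two-pore class was mainly that of Kcnk1. Kcnk1 stood at 156 and 172 CPM at day 0, 189 and 202 at day 3, 322 and 305 at day 7 and 346 and 323 at day 21. The gene was 1.93-fold higher at day 7 (log2 change 0.95, SE 0.08, adjusted p = 4.77e-11) and 2.07-fold at day 21 (log2 change 1.05, SE 0.08, adjusted p = 6.04e-12). Both libraries of day 7 and day 21 lay above those of days 0 and 3. The smaller excess at day 3 (adjusted p = 0.0112) was lost without day 0 replicate 1 (adjusted p = 0.199) or day 3 replicate 2 (0.0833). An annotated antisense gene overlaps 8.01% of the exon bases of Kcnk1. Kcnk2 stood at 93.9 and 92.7 CPM at day 0, 134 and 135 at day 3, 174 and 174 at day 7 and 109 and 115 at day 21. This gene was 1.88-fold higher at day 7 (log2 change 0.91, SE 0.07, adjusted p = 2.73e-11). At day 21 it remained above day 0 (log2 change 0.28, SE 0.07, adjusted p = 0.00143), a call that was lost with library totals (adjusted p = 0.0926) and with all 14 libraries in 1 fit (0.706), and 12.2% of its exon bases overlap an antisense gene. Kcnk5 (chr14:20140057-20181809, minus strand) stood at 1.69 and 2.41 CPM at day 0, 2.14 and 1.47 at day 3, 4.88 and 3.35 at day 7 and 16 and 18 at day 21. Its level was 8.38-fold higher at day 21 (log2 change 3.07, SE 0.22, adjusted p = 3.56e-12), with most of the rise after day 7. The acid-sensing Kcnk3 went the other way. It stood at 47 and 53.6 CPM at day 0, 46.4 and 45.3 at day 3, 17.7 and 13 at day 7 and 14.3 and 18.1 at day 21. It was 3.06-fold lower at day 21 (log2 change -1.61, SE 0.13, adjusted p = 2.23e-11). Kcnk10 stood at 5.72 and 5.92 CPM at day 0, 2.62 and 3.22 at day 3, 3.56 and 2.95 at day 7 and 1.24 and 1.45 at day 21. The gene was 4.24-fold lower at day 21 (adjusted p = 2.34e-07). Kcnk16 stood at 2.53 and 2.87 CPM at day 0, 0.194 and 0.368 at day 3, 0.305 and 0.102 at day 7 and 0 and 0.0969 at day 21. Against day 0 it was lower at day 21 by a ratio of 56.2 with a 95% counting interval of 9.70 to 2259 (adjusted p = 1.5e-07). Kcnk6 stood at 4.22 and 5.74 CPM at day 0, 7.29 and 6.52 at day 3, 6.40 and 5.18 at day 7 and 4.57 and 5.81 at day 21, with no call against day 0.

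**Figure D4:**
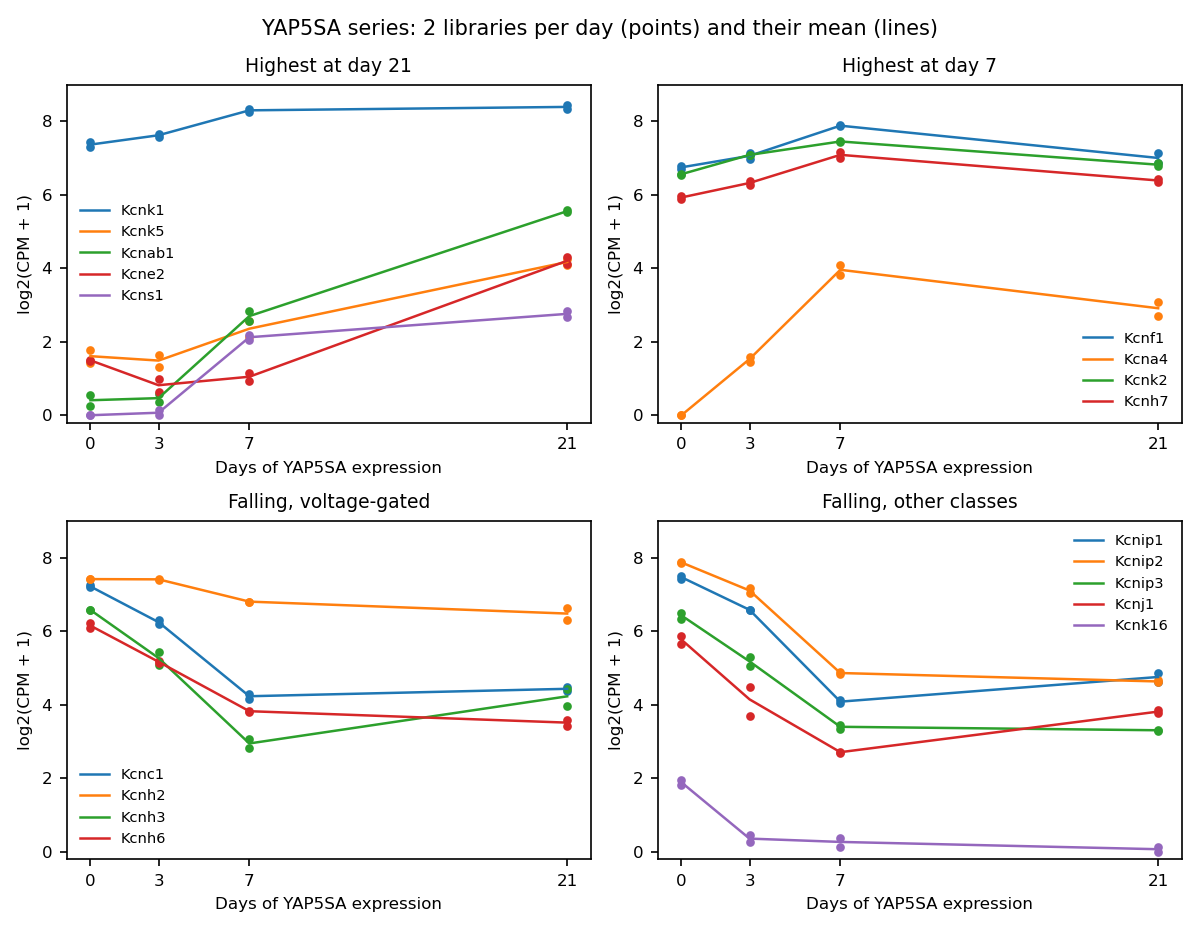
Levels as log2(CPM + 1) against days of YAP5SA expression for 18 members in 4 panels, with points for the 2 libraries of each day and lines through the log2 of their mean CPM plus 1. Kcnab1, Kcnk5, Kcne2 and Kcns1 climb mostly at or after day 7, Kcnf1, Kcna4, Kcnh7 and Kcnk2 peak at day 7, and Kcnip1 to Kcnip3 and Kcnc1 fall steeply up to day 7.

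Of 5 inward rectifiers tested, 3 were lower at day 3, 3 at day 7 and 2 at day 21. Of all genes tested 22.4%, 33.8% and 34.0% were lower at these days, so the day 21 count lay near that share. Kcnj1 stood at 49.7 and 57.6 CPM at day 0, 21.6 and 11.8 at day 3, 5.49 and 5.59 at day 7 and 13.4 and 12.7 at day 21. Its level was 9.58-fold lower at day 7 (log2 change -3.26, SE 0.20, adjusted p = 3.34e-11) and up again 2.37-fold by day 21 (adjusted p = 0.00039). Kcnj6 stood at 5.25 and 5.28 CPM at day 0, 2.43 and 1.75 at day 3, 0.407 and 0.407 at day 7 and 2.38 and 0.969 at day 21, with its lowest level at day 7 (adjusted p = 2.83e-08). The glial Kcnj10 stood at 6.94 and 6.57 CPM at day 0, 10.7 and 8.73 at day 3, 7.52 and 8.64 at day 7 and 6.48 and 5.62 at day 21. This gene was called at day 3 only, higher (adjusted p = 0.0195), a call lost with DESeq2 (adjusted p = 0.111) and without day 0 replicate 1, day 0 replicate 2 or day 3 replicate 1. Kcnj3 stood at 0.375 and 0.555 CPM at day 0, 0 and 0.184 at day 3, 0.102 and 0 at day 7 and 0.381 and 0.0969 at day 21. It was not tested. Kcnj15 averaged 1.49 CPM at day 21 against 0.0932 CPM at day 0, a ratio of 16 with a 95% counting interval of 4.07 to 138 (adjusted p = 3.15e-05). Near 0 at day 0, Kcnj15 passed the count filter only through later days, so this p-value adds no support. Kcnj1 and Kcnj6 fell to day 7 and partly returned, and Kcnj15 was the inward rectifier called higher at day 21.

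Kcnn4, the leading channel of Non-NE cells, stayed low in the YAP5SA series. It stood at 0 and 0 CPM at day 0, 0 and 0 at day 3, 0.305 and 0.712 at day 7 and 0.476 and 0.775 at day 21, under 1 CPM in every YAP5SA library and below each Non-NE library, and had too few counts for the day tests. The small-conductance Kcnn3 stood at 48.3 and 51 CPM at day 0, 23.2 and 26.9 at day 3, 8.34 and 6.0 at day 7 and 13.2 and 15.9 at day 21. It was 6.86-fold lower at day 7 (log2 change -2.78, SE 0.14, adjusted p = 3.89e-15) and 2.04-fold up again by day 21 (adjusted p = 1.69e-05). Kcnn1 stood at 1.31 and 1.39 CPM at day 0, 2.43 and 1.84 at day 3, 1.73 and 2.24 at day 7 and 2.76 and 4.46 at day 21. It was higher at day 21 (log2 change 1.43, SE 0.33, adjusted p = 0.000404). Kcnt1 stood at 10 and 10.1 CPM at day 0, 6.90 and 7.08 at day 3, 2.95 and 1.93 at day 7 and 3.33 and 3.58 at day 21. The gene was 2.86-fold lower at day 21 (adjusted p = 2.93e-07). Its day 3 call was lost with DESeq2 (adjusted p = 0.116) and without any 1 library of day 0 or day 3. The large-conductance Kcnma1 averaged 0.186 CPM at day 0, 2.85 CPM at day 7 (adjusted p = 7.48e-07) and 0.674 CPM at day 21. The class therefore held a fall of its more abundant members Kcnn3 and Kcnt1 and rises at low levels in Kcnn1 and Kcnma1.

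Of the 4 KChIP genes, Kcnip1, Kcnip2 and Kcnip3 fell steeply by day 7, and Kcnip4, at 0.838 CPM on average at day 0 and 0.966 CPM at day 7, was not called. Kcnip2 stood at 229.9 and 237 CPM at day 0, 144 and 129.6 at day 3, 28.8 and 27.4 at day 7 and 24.3 and 23.4 at day 21. Against day 0 it was 8.22-fold lower at day 7 (log2 change -3.04, SE 0.09, adjusted p = 2.54e-20). Kcnip1 stood at 171 and 181 CPM at day 0, 94.7 and 94.9 at day 3, 15.4 and 16.5 at day 7 and 28.4 and 23.6 at day 21. Its level was 10.9-fold lower at day 7 (log2 change -3.45, SE 0.10, adjusted p = 3e-20). Kcnip3 stood at 80.3 and 90 CPM at day 0, 38.3 and 32.2 at day 3, 9.15 and 9.96 at day 7 and 8.76 and 9.01 at day 21. It was 8.83-fold lower at day 7 (log2 change -3.14, SE 0.12, adjusted p = 1.19e-17). In Kcnip1 to Kcnip3 the day 3 libraries lay between those of day 0 and day 7, and only Kcnip1 was called higher from day 7 to day 21 (adjusted p = 1.87e-05). The cytosolic beta subunits, whose fold is that of aldo-keto reductases, each went their own way. Kcnab1 (chr3:65109384-65378223, plus strand) stood at 0.469 and 0.185 CPM at day 0, 0.486 and 0.276 at day 3, 6.10 and 4.88 at day 7 and 45.2 and 46.7 at day 21. The gene was 138-fold higher at day 21 (log2 change 7.11, SE 0.24, adjusted p = 1.01e-18). It was below 1 CPM in every NE, Non-NE, day 0 and day 3 library. Kcnab2 stood at 59.3 and 63.1 CPM at day 0, 42.6 and 38.4 at day 3, 29.1 and 26.6 at day 7 and 34.2 and 36.4 at day 21. This gene was 1.71-fold lower at day 21 (adjusted p = 8.83e-08). Kcnab3 stood at 28.1 and 27.8 CPM at day 0, 24.8 and 31.7 at day 3, 42.7 and 39.6 at day 7 and 22.8 and 26.8 at day 21. Its level was higher at day 7 (adjusted p = 8.92e-05) and not called at day 21. Kcne2 stood at 1.78 and 1.85 CPM at day 0, 0.972 and 0.551 at day 3, 1.22 and 0.915 at day 7 and 18.7 and 16.2 at day 21. It was 9.69-fold higher at day 21 (log2 change 3.28, SE 0.21, adjusted p = 5.74e-13), after a day 3 fall whose call was lost without day 0 replicate 2 (adjusted p = 0.0531) or day 3 replicate 2 (0.142). Kcnmb4 stood at 2.34 and 2.13 CPM at day 0, 5.25 and 5.79 at day 3, 4.78 and 4.07 at day 7 and 3.05 and 2.91 at day 21. The gene was higher at days 3 and 7 (adjusted p = 8.32e-05 and 0.0013) and not called at day 21. Kcnab1 and Kcne2 were thus accessory genes whose day 21 libraries stood above all other libraries of the study.

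The change of day 21 against day 0 was set beside that of Non-NE against NE. This shows how far the genes moved in the Non-NE direction over the series. NE replicate 2 and day 0 replicate 1 share reads, so the values of both comparisons are given side by side. Of 41 members tested in both, 24 were lower in both, 7 were lower in Non-NE and not called at day 21, 6 were lower in Non-NE and higher at day 21 (among them Kcnk2, Kcnh7, Kcnk1, Kcnf1 and Kcne2), Kcnn1 was called only at day 21, and 3 were called in neither. The shares of all genes in these combinations were not counted, and most tested members were lower in Non-NE. A large group lower in both therefore does not by itself show a common direction. Where both changes were downward, sizes differed. Kcnh2 had 88.3 ± 14.3 CPM at day 21 (n = 2) and 2.43 ± 0.661 CPM in Non-NE (n = 3), and Kcnip2 23.8 ± 0.669 and 0 CPM. The gap was smaller for Kcnip3, with 8.89 ± 0.173 CPM at day 21 and 2.82 ± 2.82 CPM in Non-NE.

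The difference of the changes was tested in 13 libraries without NE replicate 2. Of 55 members tested, 40 had a more positive change in the YAP5SA series, where 32.8% of all 14820 genes were called, 21.2% in this direction. In the other direction edgeR called 0, where it called 11.6% of all genes, and 0 members passed an unadjusted p of 0.05 or were called by DESeq2. The median log2 difference of the members was 5.12, against 0.12 over all genes tested, and the count filter again favours members with a level in NE. Of the 24 genes lower in both comparisons, Kcnip3 (log2 difference 0.78, SE 0.85, adjusted p = 0.525), Kcnn3 (log2 difference 1.04, SE 0.96, adjusted p = 0.45) and Kcnk16 (log2 difference 4.82, SE 1.83, adjusted p = 0.103) were not called different, which does not show that their changes were equal. All 6 genes with opposite calls were called different. They were picked by those calls in mostly the same libraries, so this adds no separate support. For Kcne2 the log2 difference was 7.25 (adjusted p = 7.81e-06), for Kcnf1 5.32 (0.000652), for Kcnk2 4.92 (0.000403) and for Kcnh7 3.87 (0.00462). For Kcnk1 (adjusted p = 4e-06) the fitted difference depends on the prior count, because Non-NE had no counts. Kcnk5, which was not tested between Non-NE and NE, and Kcnn4 were not called different (adjusted p = 0.0571 and 0.917), the latter with an SE of 12.59 on the log2 scale.

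**Figure D5:**
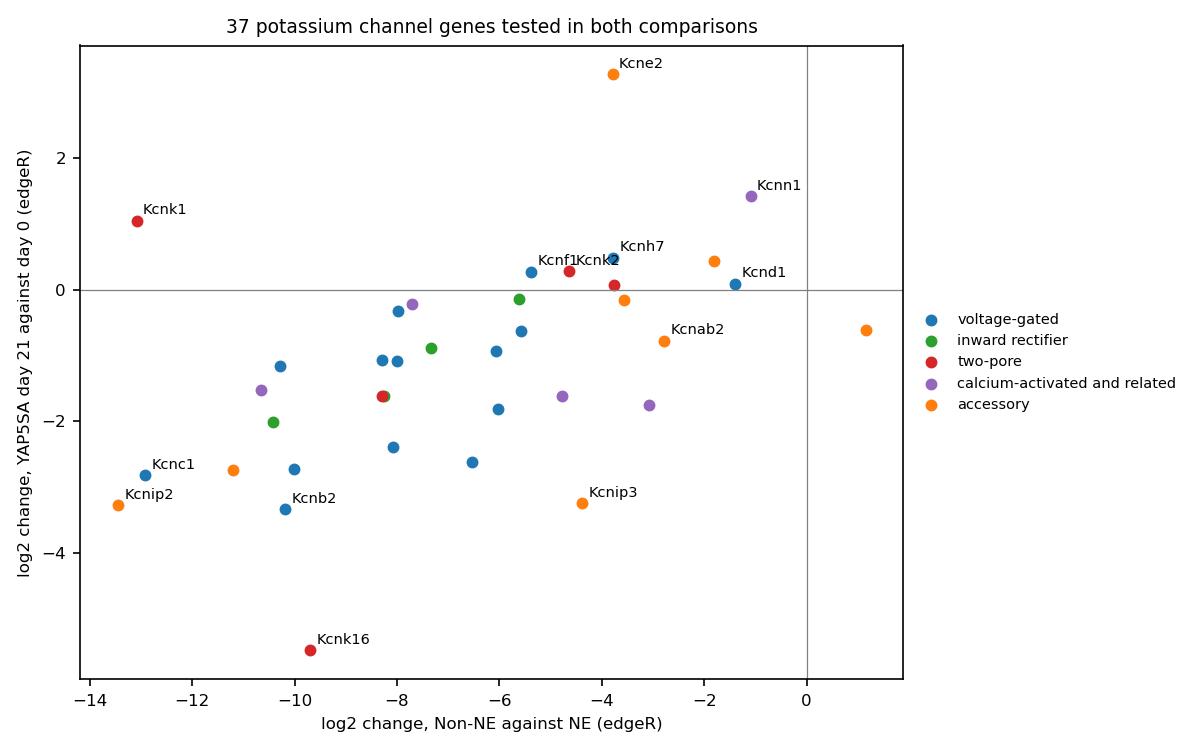
The edgeR log2 change of day 21 against day 0 (vertical) against that of Non-NE against NE (horizontal) for 37 members tested in both, coloured by class. All but 1 point, Kcnmb1, lie left of 0, and Kcnk2, Kcnh7, Kcnk1, Kcnf1 and Kcne2, called in opposite directions, lie above the horizontal line at 0. NE replicate 2 and day 0 replicate 1 share reads, and horizontal positions of genes without counts in Non-NE depend on the prior count.

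Partners without the Kcn prefix were counted from a list of 19 genes. In Non-NE against NE 9 of 11 tested were lower, with a median log2 change of -5.46, where 22.8% of all genes were lower and their median was -0.02. Partners near 0 in Non-NE, such as Dpp6 and Cntnap2, passed the count filter only through their NE level and so had to differ. This count and median therefore describe the tested partners and not the whole list. Dpp6, a transmembrane partner of Kcnd channels, went from 66.7, 112 and 53.1 to 0, 0.122 and 0 CPM, a ratio of 1812 with a 95% counting interval of 325 to 71620 (adjusted p = 8.94e-05). Over the days 4 of 13 were higher and 5 lower at day 3, 2 and 6 at day 7, and 3 and 9 at day 21, with medians of -0.12, -0.17 and -1.06, where 22.4%, 33.8% and 34.0% of all genes were lower and 26.2%, 37.2% and 37.7% higher, with medians of 0.01, 0.03 and 0.02. Dpp6 stood at 112 and 119 CPM at day 0, 79.7 and 75 at day 3, 33.4 and 37.2 at day 7 and 21.4 and 23.7 at day 21, and was lower at day 21 (adjusted p = 3.05e-17), as were Kcnip1, Kcnip2 and Kcnip3 among the other partners of Kcnd channels. The hyperpolarisation-activated cation channel gene Hcn3 stood at 25.3 and 24.8 CPM at day 0, 43 and 44.1 at day 3, 37.7 and 35.9 at day 7 and 10.9 and 12.9 at day 21. Against day 0 it was higher at day 3 (adjusted p = 4.18e-07) and lower at day 21 (adjusted p = 2.94e-08). Abcc8, the sulphonylurea receptor that completes the Kcnj11 channel, averaged 4.06 CPM in NE, 0 CPM in Non-NE, 4.89 CPM at day 0 and 2.26 CPM at day 21.

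Pumps and cotransporters set the potassium and chloride gradients. Of 25 listed genes, 14 were tested between Non-NE and NE, of which 4 were higher and 5 lower, with a median log2 change of -0.39 (over all genes 20.0% higher, 22.8% lower and a median of -0.02). Over the days 16 were tested, with 7 higher and 5 lower at day 3, 9 and 6 at day 7, and 10 and 4 at day 21, and medians of 0.27, 0.39 and 0.47. Over all genes tested 26.2%, 37.2% and 37.7% were higher and 22.4%, 33.8% and 34.0% lower at these days, with medians of 0.01, 0.03 and 0.02. The potassium-chloride cotransporter gene Slc12a4 stood at 3.38, 7.55 and 19.6 CPM in NE libraries and 91.4, 119.9 and 133 CPM in Non-NE libraries, 11-fold higher (log2 change 3.46, SE 0.63, adjusted p = 0.00502), and at 7.03 and 6.29 CPM at day 0, 40.3 and 46.3 at day 3, 77.9 and 71 at day 7 and 44.7 and 49.1 at day 21. Slc12a4 was thus higher in Non-NE and at day 21 (7.13-fold, adjusted p = 4.92e-16). The sodium-potassium-chloride cotransporter gene Slc12a2 stood at 73 and 68.4 CPM at day 0, 165 and 178 at day 3, 280.4 and 282 at day 7 and 226 and 208 at day 21. Its level was 4.01-fold higher at day 7 (adjusted p = 2.05e-17).

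Promoter sequences from RefSeq (GRCm38.p6, from 250 bases before to 50 after an annotated start) were available for 69 of the 94 members. They were searched on both strands for GGAATG, the core bound by TEAD factors through which YAP acts, and for CAGCTG, an E-box. GGAATG or its reverse complement CATTCC occurred in 14 of 69 members (20.3%) and in 16.6% of all 27025 genes with a promoter in the table (14.7% of 32851 promoters). CAGCTG occurred in 18 of 69 members (26.1%) and 18.3% of all genes (16.3% of promoters). Among members called higher at day 21, 3 of 13 with a promoter held GGAATG (Kcnk1, Kcnk2 and Kcns1), and among those called lower 4 of 18 did (Kcnh5, Kcnj6, Kcnk10 and Kcnk12). For CAGCTG the counts were 4 of 13 and 3 of 18. The hexamers thus occurred among higher and lower members alike, and a match is only a run of letters in these windows. Of the 14 promoters with GGAATG, 3 are printed because their genes stand out above: Kcnk1 (chr8:125994852-125995151, plus strand), the most abundant member, Kcns1 (chr2:164171064-164171363, minus strand), which appeared after induction, and Kcnn4 (chr7:24370013-24370312, plus strand), the member higher in Non-NE. They are given 5′ to 3′ on the gene's strand, with matches to either hexamer in capitals.
Kcnk1: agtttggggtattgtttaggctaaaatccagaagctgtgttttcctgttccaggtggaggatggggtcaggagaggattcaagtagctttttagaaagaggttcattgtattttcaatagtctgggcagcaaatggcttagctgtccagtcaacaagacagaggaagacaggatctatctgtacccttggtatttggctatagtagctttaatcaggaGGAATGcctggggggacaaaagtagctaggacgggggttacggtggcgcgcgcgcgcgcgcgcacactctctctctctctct
Kcns1: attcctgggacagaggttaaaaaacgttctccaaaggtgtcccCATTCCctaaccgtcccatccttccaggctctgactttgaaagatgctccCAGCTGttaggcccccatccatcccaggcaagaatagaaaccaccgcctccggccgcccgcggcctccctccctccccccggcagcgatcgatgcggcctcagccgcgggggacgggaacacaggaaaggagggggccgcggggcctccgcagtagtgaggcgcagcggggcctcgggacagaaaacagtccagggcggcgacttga
Kcnn4: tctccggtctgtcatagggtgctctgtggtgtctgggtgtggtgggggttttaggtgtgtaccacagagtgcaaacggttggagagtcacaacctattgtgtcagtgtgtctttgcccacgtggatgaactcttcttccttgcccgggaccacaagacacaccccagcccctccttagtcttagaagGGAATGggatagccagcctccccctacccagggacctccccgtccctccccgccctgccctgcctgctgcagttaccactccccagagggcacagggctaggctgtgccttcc
In the Kcnk1 window GGAATG starts 32 bases before the annotated start, in Kcnn4 63 bases before it, and in Kcns1 CATTCC lies 207 and CAGCTG 157 bases before it.

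The remaining 52 members stayed below a mean of 5 CPM in every group. Of those named above, Kcnd3, an A-type gene, was higher at day 7, at 1.22 CPM against 0.234 CPM at day 0 (adjusted p = 0.0037), and the two-pore gene Kcnk12 was lower at day 21, at 0.192 CPM against 2.47 CPM (adjusted p = 1.09e-06). Kcnc4, of the fast-spiking family, averaged 2.00 CPM at day 0, 0.203 CPM at day 7 and 1.54 CPM at day 21 (adjusted p = 1.39e-05 and 0.361 against day 0). A few were found mainly in Non-NE, below the count filter, with means of 1.99 CPM for Kcna6, 1.48 CPM for Kcnt2 and 0.850 CPM for Kcnj2, against 0.0355 CPM for Kcna6 in NE and no counts there for the others. In the Non-NE libraries Kcna6 had 0, 8 and 47 counts and Kcnt2 23, 0 and 6, so each was absent from a library. Kcna6 shares 39.6% of its exon bases with an antisense gene. Kcnh1, the EAG gene known from tumours, averaged 3.70 CPM across NE libraries and 1.47 CPM across Non-NE libraries. Its counts were uneven, at 8, 0 and 97 in NE and 0, 30 and 7 in Non-NE.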

How the data were processed

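Gene counts of 14 poly(A) RNA libraries were used as deposited by the authors, 1 whole-number count per gene symbol and library. The submitters' processing notes name mm10, STAR 2.4.2 and featureCounts, and strand, annotation and featureCounts settings are not given in the sources used here. Tests used edgeR 4.0.16 (R 4.3.3, limma 3.58.1): TMM scaling, filterByExpr, robust quasi-likelihood fits across all genes and Benjamini-Hochberg adjustment. Fits held the 6 NE and Non-NE libraries (12966 genes), the 8 YAP5SA libraries (13996 genes), or 13 libraries without NE replicate 2 for the difference of changes (14820 genes). The SE is the log2 change divided by the root of F. CPM used TMM factors over all 14 libraries, 0.856 to 1.09, and gene lengths were merged GENCODE M21 exons. The code was checked on simulated counts.

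Members, classes, motifs and the partner, pump and marker lists were chosen with earlier results of these data known. Values in every library are given for 38 of the 42 members with a mean of at least 5 CPM in a group. The other genes of that rule are counted but not reported here, and further members were named singly after their values were seen. Alternatives were DESeq2 1.42.0, its size factors, library totals, no count filter, a 1 CPM filter, all 14 libraries in 1 fit, a replicate block and each library left out. Replicate numbers did not pair the samples.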

Additional observations from a re-analysis of the deposited data

Results flagged for a closer look

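For 5 of the members reported here the change of day 21 against day 0 differed from that of Non-NE against NE by the test of the difference, and both changes were called, in opposite directions. The test used mostly the same libraries as those calls, so it is no separate support for them. The log2 difference of the changes was 7.25 for Kcne2, 5.32 for Kcnf1, 4.92 for Kcnk2 and 3.87 for Kcnh7. For Kcnk1 it was 14.05, a fitted value that depends on the prior count because Non-NE libraries had no counts. The rises of Kcnf1 and Kcnk2 at day 21 were small, with log2 changes of 0.28 each. The day 21 call of Kcnf1 was lost with library totals (adjusted p = 0.148), without day 0 replicate 1 (0.067), without day 21 replicate 2 (0.148) and with all 14 libraries in 1 fit (0.754). That of Kcnk2 was lost with library totals (0.0926) and with all 14 libraries (0.706), and that of Kcnh7 with all 14 libraries (0.58).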

How the results depend on the processing

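With all 14 libraries in 1 fit, Kcn genes called higher and lower numbered 3 and 1 at day 3, 7 and 17 at day 7, and 9 and 16 at day 21 against day 0, 2 and 6 from day 3 to day 7, and 2 and 2 from day 7 to day 21. The cause was not tested, but that fit estimated 1 spread for all groups. In Non-NE against NE, 2 were higher in that fit and 2 without a count filter. No called change of a Kcn gene reversed its direction in the alternatives that gave it a value. Leaving out each library in turn gave 1 to 1 higher and 35 to 39 lower in Non-NE, with 36 lower without NE replicate 2, the library that shares reads. Over the days it gave 8 to 11 higher and 16 to 20 lower at day 3, 14 to 16 and 25 to 28 at day 7, 11 to 15 and 24 to 26 at day 21, 13 to 14 and 18 to 22 from day 3 to day 7, and 12 to 15 and 14 to 16 from day 7 to day 21, and 35 to 41 more positive and 0 to 0 more negative changes. A lone remaining library of a day was assumed to vary like the other groups. With the replicate block the calls were 1 and 36 in Non-NE, the same counts as without it at each day, and 38 and 0 for the difference. Between same-numbered libraries, deviations of log CPM from the group mean had correlations of -0.033 to 0.034. Scaling by library totals moved the median log2 change of all genes in Non-NE from -0.02 to -0.28 and gave 1 and 38 calls there, and 10 and 28 at day 21. Members under the floor of 3 counts per group cannot be ordered at this depth.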
